A study of Dunaliella salina with 6 samples.

Results

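The cytosolic ribosomal protein genes of *Dunaliella salina* Bardawil are the nuclear genes that the deposited annotation names RPL, RPS, RPLP or RPSA, and 82 of the 25081 genes in the expression table were of this kind. The rule that chose them used annotation name and chromosome and no measured value, but earlier results of these data were known at that time. It set aside 6 genes named RPP14, RPP25, RPP30, RPP40, RPPK1 and RPPK2 as other proteins. The names assign 46 genes to the large subunit (RPL), 33 to the small subunit (RPS, including RPSA) and 3 to the stalk (RPLP0, RPLP1 and RPLP2).

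The cytosolic ribosome joins a small subunit, which reads the mRNA, to a large subunit, which forms the peptide bond. Each subunit is built of ribosomal RNA and a set of proteins present once per ribosome, apart from the stalk proteins P1 and P2, which are present in several copies and recruit the translation factors that hydrolyse GTP. Genes for these proteins are among the most strongly transcribed housekeeping genes of growing eukaryotic cells, and in yeast and animals they are known to be regulated together with growth rate and nutrient supply.

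*Dunaliella salina* is a unicellular green alga that tolerates high salt. Wild-type vegetative cells of the Bardawil strain (UTEX LB 2538) were grown for 3 days in 1 M NaCl at 24 °C under constant light, with 3 flasks that received no added iron and 3 that received 1.5 µM iron. One poly(A)-selected library was sequenced per flask. The comparison asks how transcript abundance differs when iron is left out of the medium. The groups differ in added iron only, and all flasks carried the same strain and salt, so the series holds no time course and no recovery of iron-starved cells.

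Values are FPKM, read counts scaled for transcript length and library size, as deposited. The sources used here give no read depth. The steps between low values implied 18100000 to 25300000 reads per library, but whole reads could not be recovered and no counting interval is given. Summed FPKM ran from 472982 to 537245 without added iron and from 538457 to 610113 with it. In bulk cultures, fewer cells of a kind and less RNA per cell cannot be told apart, and FPKM is relative to its library and not an amount per cell. Because the sums differ, the same FPKM is not the same share of the sum in every library.

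The gene names were checked against the Pfam protein domains in the annotation. A domain was listed for 80 of the 82 models, the exceptions being RPSA1A and RPSA1B. Some names and domains did not match. RPL7AE carries the product name of snu13, an RNA-binding protein of the spliceosome. RPL13A and RPL13B carry the domain of one large-subunit family (Pfam L13), and RPL13C and RPL13D that of another (L13e). RPL37A carries the L37e domain, whereas RPL37B and RPL37C carry L37Ae. The name RPS27A belongs to a protein that is made as a fusion with ubiquitin in other eukaryotes, and this model carried a ubiquitin domain too. RPS18, with 20 exons and 2952 nt of exon, also held a FAD-binding domain, and RPL31, with 14 exons and 3258 nt, a homeobox domain. The names RPL28, RPL40, RPL41, RPS12 and RPS30 were carried by 0 models among those used here.

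Ribosomal protein transcripts were among the most abundant in every library. Mean FPKM over the 6 libraries had a median of 1097 across all 82 members, with quartiles of 849 and 1366. Across the 13909 genes that passed the filter of mean FPKM 1, the median was 9.87. Of the 100 genes of highest mean FPKM, 52 were ribosomal protein genes. In single libraries that number was 56, 55 and 57 without added iron against 51, 48 and 48 with iron. Among the 200 highest genes 76 were ribosomal protein genes, and 73 members reached 500 FPKM. Together the members held 18.9%, 17.6% and 18.6% of all FPKM without added iron against 19.4%, 17.9% and 18.3% with iron. The means of this share were 18.4% ± 0.676 and 18.5% ± 0.815 (SD, n = 3), and the groups overlapped. The sign of this small difference turned when 1 of 2 libraries was left out. After quantile normalization the share was 19.3% to 19.8% without added iron, above 17.3% to 18.2% with iron.

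**Figure D1:**
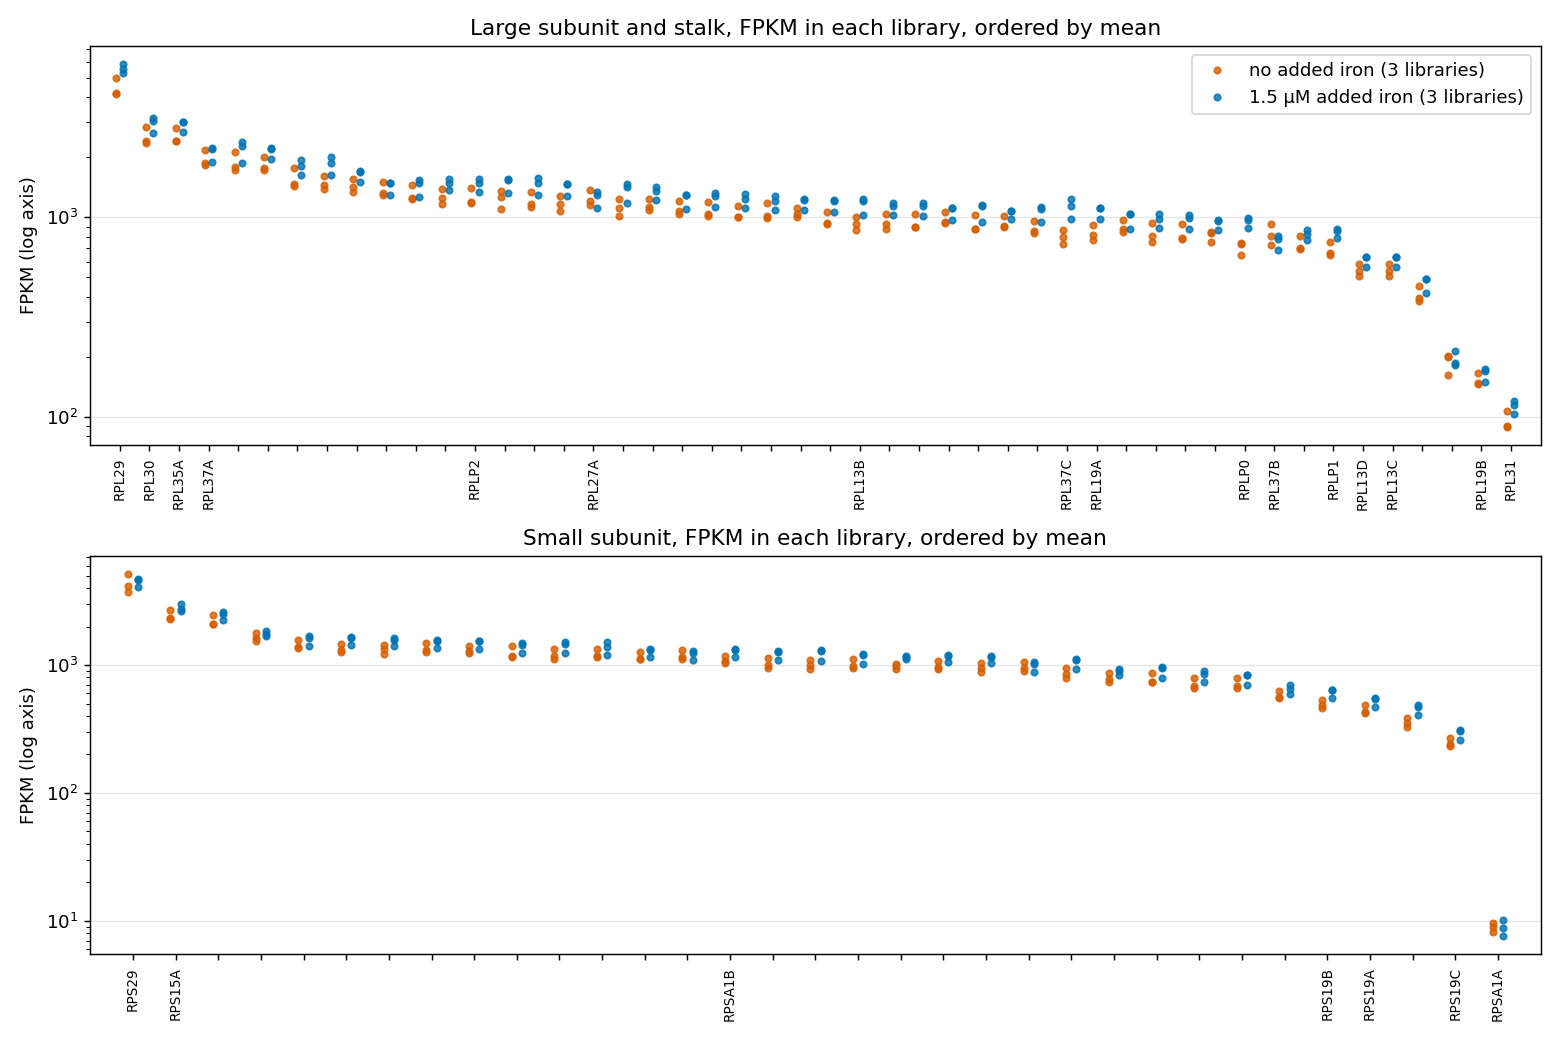
FPKM of each tested ribosomal protein gene in each of the 6 libraries (log axis), with the large subunit and stalk above and the small subunit below, ordered by mean, with the genes named in full labelled. Most genes lie near 1000 FPKM. RPL29 and RPS29 stand at the top, and RPSA1A lies near 9 FPKM.

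The subunits were expressed at like levels. The median of mean FPKM was 1116 over 45 tested large-subunit genes, with a range of 104 to 5006. For the 33 small-subunit genes it was also 1116, with a range of 8.85 to 4416. The 3 stalk genes lay at 763 to 1362, with a median of 831.

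RPL29, a short basic protein of the large subunit, had the highest level, rank 2 of all genes by mean FPKM (DsB_g02128, chromosome 1, 31069674 to 31070878, minus strand). It stood at 4971, 4221 and 4139 without added iron against 5548, 5293 and 5865 with iron. All 3 libraries without added iron were below all 3 with it, but the log2 difference of -0.33 (SE 0.098) did not pass the threshold (limma, adjusted p = 0.0762). RPS29, a zinc-binding protein of the small subunit, ranked 4 (DsB_g22142, chromosome 13, 13775373 to 13776736, minus strand). It stood at 5170, 4181 and 3719 FPKM without added iron against 4688, 4072 and 4664 with iron, and these groups overlapped (log2 difference -0.05, SE 0.131, limma adjusted p = 0.86). Both genes have very short models, with 180 and 201 nt of exon. The search for read steps fitted best with 198 to 212 nt taken off model length. These 2 models are no longer than that or nearly so, which leaves their levels and ranks uncertain.

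RPL30, a large-subunit protein that in yeast binds its own transcript, ranked 11 (DsB_g17831, chromosome 10, 11049701 to 11050497, minus strand). It had 2851, 2419 and 2369 FPKM without added iron against 3027, 2648 and 3141 with iron. RPL35A ranked 12 and is encoded in 1 exon (DsB_g14753, chromosome 8, 9068836 to 9069162, plus strand), at 2806, 2411 and 2410 against 3009, 2670 and 2997 FPKM. RPS15A ranked 15 (DsB_g08591, chromosome 4, 21180013 to 21180763, minus strand), at 2684, 2307 and 2340 against 2754, 2626 and 2986 FPKM. The groups overlapped for each of these genes.

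Behind them, RPS26 ranked 20, RPL37A 24, RPL23 25, RPL36A 26, RPS21 32, RPL39 33 and RPL38 35. RPL39 lines the exit tunnel of the ribosome. Ranks 37 to 50 included RPL3 (37), which reaches toward the peptidyl transferase centre, RPS4 (38), RPS2 (40), RPS3A (42), RPS27A (44), RPL10 (46), RPS16 (47), RPL11 (48), RPL26 (49) and the stalk protein RPLP2 (50). Genes at ranks 52 to 63 included RPL4 (52), also a tunnel protein, RPL23A (54), RPS9 (55), RPS3 (56), which sits at the mRNA entry, RPL5 (59), RPL27A (61), RPL8 (62) and RPL10A (63). RPL5 and RPL11 form a complex with 5S ribosomal RNA.

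A dense group followed. It included RPS24 (68), RPSA1B (70), RPL7A (71), RPL17 (72), RPL34 (75), RPL22 (76) and RPS10 (79). RPS23, a protein of the decoding centre, ranked 84, and RPL12, at the base of the stalk, ranked 86. After them came RPS7 (88), RPL13B (89), RPS13 (90), RPL9 (91), RPL21 (92), RPL15 (93), RPL32 (95) and RPL27 (97). Neighbours in this order lay closer together than 1 gene's values did between libraries, since RPL13B, at rank 89, alone ran from 868 to 1242 FPKM.

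Past rank 100 came RPS27E (101), RPL6 (102), RPL37C (103), RPS6 (104), known in yeast, plants and animals as a phosphorylated protein of the small subunit, RPL19A (105), RPL18 (108), RPL35 (115), RPL36 (116), RPL7 (119), RPS20 (126), RPS15 (127), RPLP0 (129), RPL37B (131), RPL14 (132), RPS28 (133), RPLP1 (135) and RPS14 (138). RPS25 ranked 152, and RPL13C and RPL13D tied at 156.5. RPS19B followed at 166, RPS19A at 177, RPL24 at 187, RPS18 at 193 and RPS19C at 262. RPL7AE ranked 363, RPL19B 450 and RPL31 673.

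The lowest members were RPSA1A and RPL13A. RPSA1A ranked 7463, at 9.51, 8.93 and 8.23 FPKM without added iron against 10.1, 7.56 and 8.79 with iron. RPL13A ranked 15641 and was near 0, at 0.558, 0.0025 and 0.00873 against 0.00442, 0.273 and 0.211 FPKM, so it did not pass the filter and was not tested.

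FPKM divides by model length, and level and length were related among these genes. Spearman's rho between mean FPKM and summed exon length was -0.33 over 81 genes, which share libraries and annotation and are not independent. The 9 tested members without an annotated UTR had a median of 372 nt of exon and 2616 FPKM, with a range of 104 to 5006. The 72 with a UTR had medians of 980.5 nt and 1068 FPKM, with a range of 8.85 to 2332, and rho was -0.06 among them. Of the 10 most abundant members, 7 had no UTR in the model. The part of model length in the levels of RPL29, RPS29, RPL30, RPL35A and RPS15A was not tested.

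**Figure D2:**
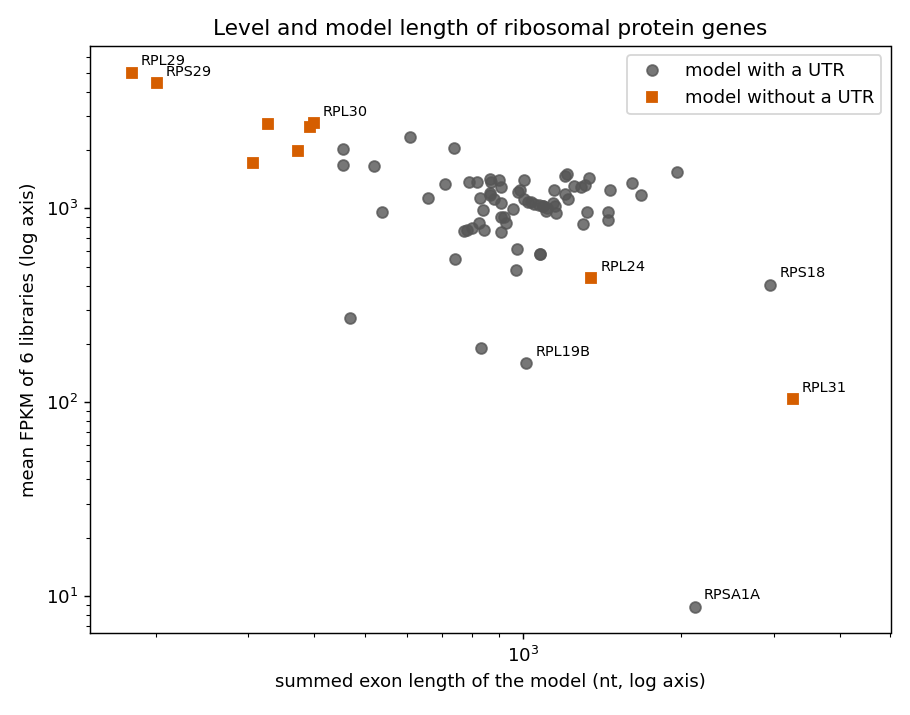
Mean FPKM of the 6 libraries against summed exon length in nt (both log axes) for the 81 tested ribosomal protein genes, with squares for models that lack a UTR. The shortest models without a UTR lie highest, and models with a UTR show little trend.

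As a group the models were compact. They had a median of 5 exons, with a range of 1 to 20, against 8 for all tested genes, and a median exon sum of 961.5 nt against 1544. RPL35A, RPS19C and RPL13A had 1 exon. Of the members, 0 overlapped another model, and 23 had a neighbour within 250 nt, in all 23 cases on the opposite strand. The genes were spread over 15 of the 16 chromosomes: 17 lay on chromosome 2 (20.7% of members against 10.1% of all models), 13 on chromosome 8 (15.9% against 6.31%), 2 on chromosome 1 (2.44% against 9.08%) and 0 on chromosome 16.

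Without added iron the deposited FPKM of nearly every ribosomal protein gene lay a little below its value with added iron, and the shift was of like size for most of them. The log2 fold change (the group without added iron minus the group with it, in log2(FPKM + 1)) was negative for 79 of 81 genes and had a median of -0.21, with quartiles of -0.24 and -0.15. The median over all tested genes was 0.00. In percent, the members differed by a median of -13.3%, with a range of -28.8% to 8.04%. The 65 genes nearest the middle lay within 0.1 log2 of the members' median, and the SD of the 81 fold changes was 0.092. The median SE of a single fold change was 0.106. That SE includes shifts that the members of a library share, so it does not measure the spread between genes.

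Median member FPKM was 1111, 945 and 988 in replicates 1, 2 and 3 without added iron against 1213, 1084 and 1242 with iron. The highest library without added iron thus lay above the lowest with it. Genes moved together within a library as well: the SD of their log2 deviations from their own means was 0.0436 to 0.0739 in any 1 library.

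Few genes passed the test singly. At an adjusted p under 0.05 by limma, 2 of 81 (2.47%) were lower without added iron and 0 were higher. Over all tested genes 9.39% were called, 5.20% lower and 4.19% higher, so the members' share was below the background. Without the filter on low values 0 members were lower, against 2.63% of all genes, and in replicates 1 and 2 alone also 0, against 4.75%. At an unadjusted p under 0.05 by limma, 23.5% of members passed in either direction, against 25.0% of all tested genes. All 19 of those members were lower and 0 higher. The share of all tested genes that were lower at this threshold was not computed, so the members' lower share has no like background. The groups did not overlap for 12 members, all lower (14.8%), where 16.0% of all tested genes did so in the same direction. By subunit, 44 of 45 large-subunit genes were negative with a median of -0.21, as were 32 of 33 small-subunit genes with a median of -0.19 and all 3 stalk genes with a median of -0.29.

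RPL37C, which carries the zinc-binding L37Ae domain of the large subunit, fell the most (DsB_g14913, chromosome 8, 11918192 to 11921038, plus strand, 5 exons). It stood at 865, 734 and 794 without added iron against 1146, 982 and 1231 with iron. Every library without added iron lay below every library with it. The means were 797 ± 65.6 and 1120 ± 127 (SD, n = 3), and limma gave -0.49 on the log2 scale (SE 0.115, adjusted p = 0.0377).

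RPLP0, the protein that anchors P1 and P2 to the ribosome, was the other gene that fell (DsB_g04628, chromosome 2, 30196716 to 30208109, minus strand, 8 exons). It had 744, 650 and 737 FPKM without added iron against 969, 890 and 995 with iron, again with no overlap. The means were 710 ± 52.4 and 951 ± 54.7 (SD, n = 3), and limma gave -0.42 on the log2 scale (SE 0.098, adjusted p = 0.0348). Both calls were close to the threshold. With 1 library left out, RPL37C passed only without replicate 2 with added iron and RPLP0 only without replicate 3 without added iron, and the adjusted p ranged from 0.0368 to 0.144 and from 0.0478 to 0.146. In replicates 1 and 2 alone neither passed, at adjusted p of 0.115 and 0.0790.

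The other stalk proteins lay lower too without passing the test. RPLP1 had 755, 660 and 645 FPKM without added iron against 858, 786 and 875 with iron (DsB_g10969, chromosome 6, log2 fold change -0.29, limma adjusted p = 0.116). These groups did not overlap. RPLP2 had 1398, 1200 and 1187 against 1489, 1343 and 1556, with overlap (DsB_g19371, chromosome 11, log2 fold change -0.21, limma adjusted p = 0.252).

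At the other end, RPL37B was the member with the highest fold change (DsB_g03023, chromosome 2, 11144367 to 11148657, minus strand, 4 exons). It had 924, 811 and 728 FPKM without added iron against 783, 687 and 810 with iron. These groups overlapped, and the log2 fold change of 0.11 did not pass the test (SE 0.118, limma adjusted p = 0.623). The next were RPSA1A at 0.02 and RPL27A, a large-subunit protein, at -0.01. RPL27A stood at 1368, 1203 and 1152 against 1298, 1120 and 1339 FPKM (DsB_g16793, chromosome 9), with overlap.

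The direction of the common shift depended on how the libraries were scaled. With each library rescaled to the same sum, the members' median moved from -0.21 to -0.02, and that of all tested genes from 0.00 to 0.17. Then 33 members were positive and 48 negative, RPL37B rose (log2 fold change 0.29, limma adjusted p = 0.0167), and RPL37C and RPLP0 remained lower (-0.30 and -0.24, adjusted p = 0.0212 and 0.0488). At this scaling 22.9% of all genes were called higher and 3.96% lower.

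Scaling by median-of-ratios factors left the median at -0.21 and raised the members called lower to 10, and upper-quartile factors gave -0.22 and 11. The background was then 7.42% and 8.18% lower. The genes called under both included RPL37C, RPLP0, RPLP1, RPL13B, RPL19A, RPL29, RPL38, RPS18 and RPS19B, and RPL31 was called with upper-quartile factors only. Under these linear scalings the members stayed 0.19 to 0.21 below the median of all genes.

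Quantile normalization, which gives every library the same distribution of values, turned the direction. The members' median became 0.13, with 70 genes positive and 11 negative. Of the 81, 29 were then called higher and 0 lower, against a background of 7.55% higher and 7.87% lower. The 29 included RPL30, which stood at 0.31 on the log2 scale (limma adjusted p = 0.00194), RPL35A at 0.31 (0.00204), RPS15A at 0.32 (0.00144) and RPL37A at 0.40 (0.00164). The most abundant members, RPL29 at -0.17 (adjusted p = 0.0914) and RPS29 at 0.26 (0.0851), did not pass. RPL37C and RPLP0 no longer passed, at -0.11 (adjusted p = 0.239) and -0.02 (0.864). Only 10 members kept 1 direction under the deposited values and the 4 scalings: RPL37B, positive, and RPL37C, RPLP0, RPL29, RPS19A, RPS19B, RPS19C, RPL24, RPS18 and RPL31, negative.

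**Figure D3:**
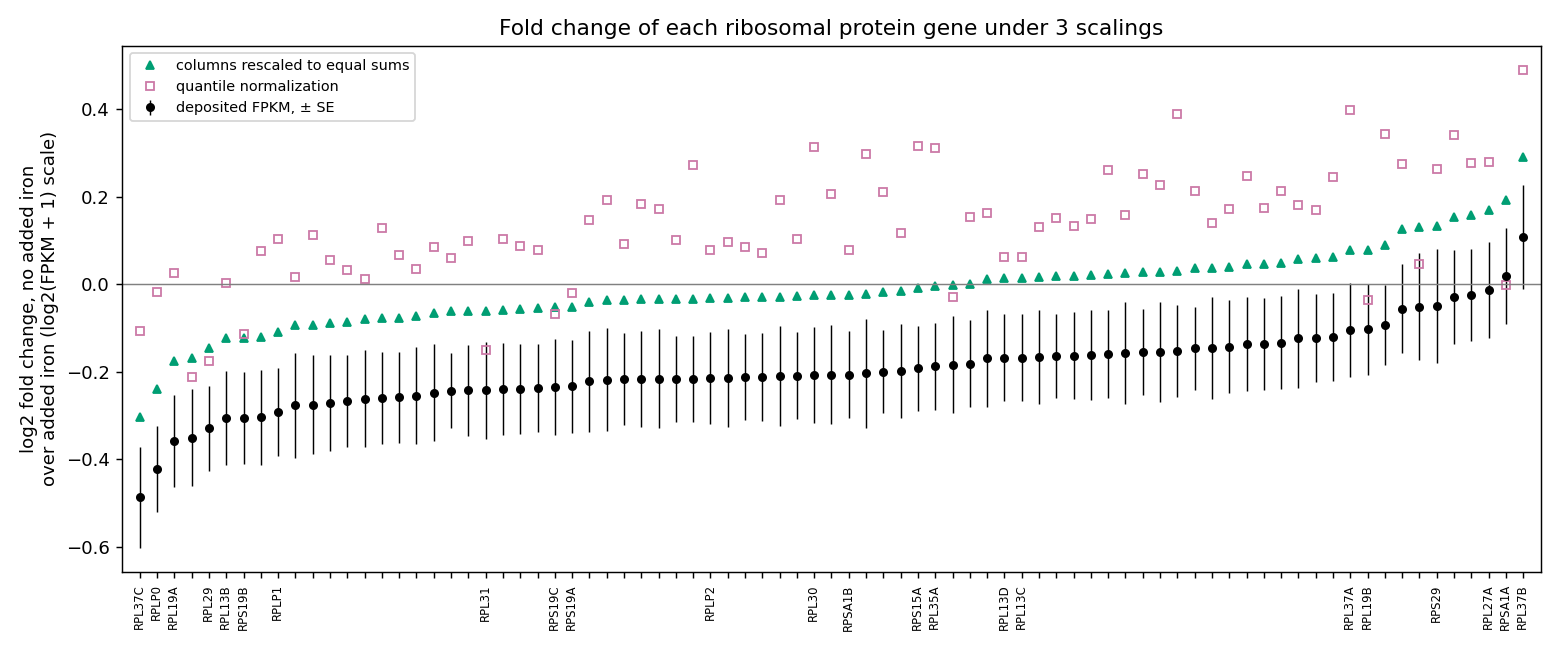
Log2 fold change of no added iron over added iron for each tested ribosomal protein gene, ordered by its value with the deposited FPKM (circles, bars are 1 SE), with the genes named in full labelled. Triangles, from columns rescaled to equal sums, center near 0, and squares, from quantile normalization, lie mostly above it. RPL37C and RPLP0 lie lowest and RPL37B highest with the deposited values.

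The rank of the fold change moved in the same way. Ordered from the highest of 13909, the median member stood at place 11318 with the deposited FPKM, 10970 with rescaled sums and 3683 with quantile normalization. RPL37B moved from place 4232 to 622, RPL27A from 7322 to 1592, RPLP0 from 12999 to 7256 and RPL37C from 13181 to 9478.

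Rank within a library does not change with any linear scaling, and by rank most members stood nearer the top without added iron. The mean rank was nearer the top for 69 members, further down for 11 and equal for 1. For 52 members (64.2%) every library without added iron ranked nearer the top than every library with it, against 17.9% of all tested genes. That background covers genes of every level, and none of like abundance was computed. The members moved together within a library, so the 52 are not independent results. A rank also depends on the other abundant genes around it. Quantile normalization sets values by these ranks, so its result is not separate from them. These were 29 large-subunit, 22 small-subunit and 1 stalk gene. The median member rank was 75, 77 and 77 without added iron against 85, 90 and 92 with iron.

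RPL30 ranked 9, 9 and 10 without added iron against 17, 18 and 17 with iron. RPL35A ranked 10, 10 and 9 against 18, 17 and 18. RPL10, a protein that joins the large subunit late in assembly, ranked 36, 39 and 38 against 51, 60 and 65. Neither group overlapped the other for these genes, although the FPKM of RPL10 was 1497, 1296 and 1319 against 1489, 1295 and 1490. Conversely, RPS18 ranked 207, 221 and 195 against 185, 193 and 189, and RPL31 ranked 687, 768 and 701 against 622, 675 and 650. Those were the 2 members further down in every library (2.47%, background 19.2%). Both models hold a second domain, but so do other members such as RPS27A, and a link to rank was not tested.

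Other abundant genes spread more widely in fold change. Of genes with a mean of at least 500 FPKM, the 73 ribosomal protein genes had a median log2 fold change of -0.21 with an SD of 0.089, and the 103 others had a median of -0.47 with an SD of 1.86. Of those 103, 54 were called lower and 6 higher. With rescaled sums the medians were -0.02 and -0.29, and with quantile normalization 0.15 and -0.13. In each case the median of the ribosomal protein genes lay above that of the other abundant genes, a difference that was not tested. The mean used to choose these genes covered both groups. A gene abundant only with, or only without, added iron could thus be among the 103. That choice can widen their spread and move their median. The 103 also mix genes of many kinds, while the ribosomal protein genes were chosen by name. The wider spread is thus a description of these sets, and its cause was not tested.

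**Figure D4:**
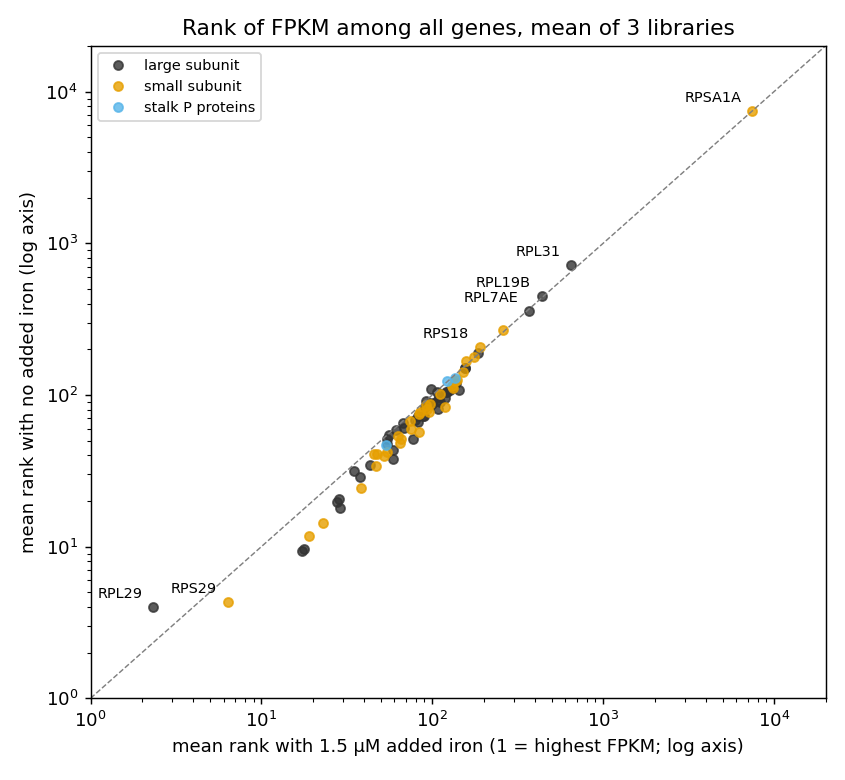
Mean rank of each tested ribosomal protein gene among all genes without added iron against its mean rank with 1.5 µM added iron (both log axes, rank 1 is the highest FPKM, 3 libraries each). Most points lie below the dashed line of equal rank, nearer the top without added iron. RPS18 and RPL31 lie above it.

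To read each gene against the rest of the ribosome, libraries were also scaled by the median ribosomal protein gene, a choice made after the values were seen. Relative to that gene, 5 members rose: RPL37B by 0.33 log2 (SE 0.067, limma adjusted p = 0.0128), RPL27A by 0.20 (0.0267), RPS24 by 0.19 (0.0286), RPL10 by 0.16 (0.0318) and RPS27E, a zinc-binding protein of the small subunit, by 0.19 (0.0378). RPL37C, at -0.27 (SE 0.054, adjusted p = 0.0117), and RPLP0, at -0.20 (SE 0.058, adjusted p = 0.039), fell. The background was 19.1% higher and 2.94% lower at this scaling. The remaining 74 tested members did not pass the test relative to it.

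Several symbols are carried by more than 1 gene, and the ratio of such copies within a library does not depend on a library's linear scaling. RPL37B and RPL37C, which share the L37Ae domain, had a ratio of 1.07, 1.11 and 0.917 without added iron against 0.683, 0.700 and 0.658 with iron. RPL37B was thus about level with RPL37C without added iron and below it in every library with added iron. The means were 1.03 ± 0.0999 and 0.680 ± 0.0212 (SD, n = 3), a log2 difference of 0.60. The exact permutation test, two-sided, gave p = 0.1, the smallest that 3 against 3 libraries allow, and 0.15 adjusted over the 6 ratios compared. RPL37A, the L37e gene, had 2178, 1881 and 1826 FPKM against 2189, 1902 and 2235, with overlap.

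The ratio of RPL19A to RPL19B, genes on chromosome 2 for a protein whose long helix bridges the subunits, was 5.54, 5.22 and 5.58 without added iron against 6.51, 6.54 and 6.44 with iron. RPL19A was the major copy in all 6 libraries, and the ratio was lower in every library without added iron (log2 difference -0.26, exact permutation p = 0.1, adjusted 0.15). RPL19A had 917, 770 and 817 FPKM against 1110, 980 and 1120, without overlap (limma adjusted p = 0.0735). RPL19B had 166, 148 and 147 against 171, 150 and 174, with overlap.

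RPS19, which in human cells is needed to mature the small-subunit RNA, has 3 genes. RPS19A and RPS19B lie 9299 nt apart on chromosome 6 in the same orientation, and RPS19C is a gene of 1 exon on chromosome 15. RPS19B was highest at 534, 457 and 485 FPKM without added iron against 634, 551 and 641 with iron. RPS19A had 483, 418 and 431 against 543, 473 and 553, and RPS19C 269, 234 and 243 against 311, 261 and 307. The order of the copies was the same in all 6 libraries. The ratio of RPS19A to RPS19B was 0.906, 0.915 and 0.889 against 0.856, 0.858 and 0.862, a small difference of 0.07 log2 with no overlap (exact permutation p = 0.1, adjusted 0.15). RPS19B to RPS19C averaged 1.98 without added iron and 2.08 with iron (-0.07, the same exact permutation p). RPS19A to RPS19C averaged 1.79 in both groups (exact permutation p = 0.9).

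RPSA1B (DsB_g13468, chromosome 7, 13987113 to 13991668, plus strand) had 1173, 1038 and 1083 FPKM without added iron against 1310, 1154 and 1340 with iron, and RPSA1A (DsB_g04327, chromosome 2) stayed near 9 FPKM. RPSA is the small-subunit protein related to the laminin receptor of animals. The mean ratio of RPSA1B to RPSA1A was 124 without added iron against 145 with iron, and the groups were not separated (exact permutation p = 0.2).

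RPL13C and RPL13D lie 43458 nt apart on chromosome 8 and were listed with identical values in all 6 libraries, 585, 509 and 539 FPKM without added iron against 636, 564 and 635 with iron. They are thus 1 measurement and not 2, and the sources used here do not say how the authors assigned reads shared by near-identical genes. The totals, shares and spreads given over the members still count both genes. In the whole table, 164 genes above 0 in every library shared all 6 values with another gene. RPL13B, of the other domain family, had 1010, 868 and 931 against 1204, 1032 and 1242, without overlap (log2 fold change -0.31, limma adjusted p = 0.123). Whether the copies of RPL19, RPS19 and RPL37 share reads was not tested.

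**Figure D5:**
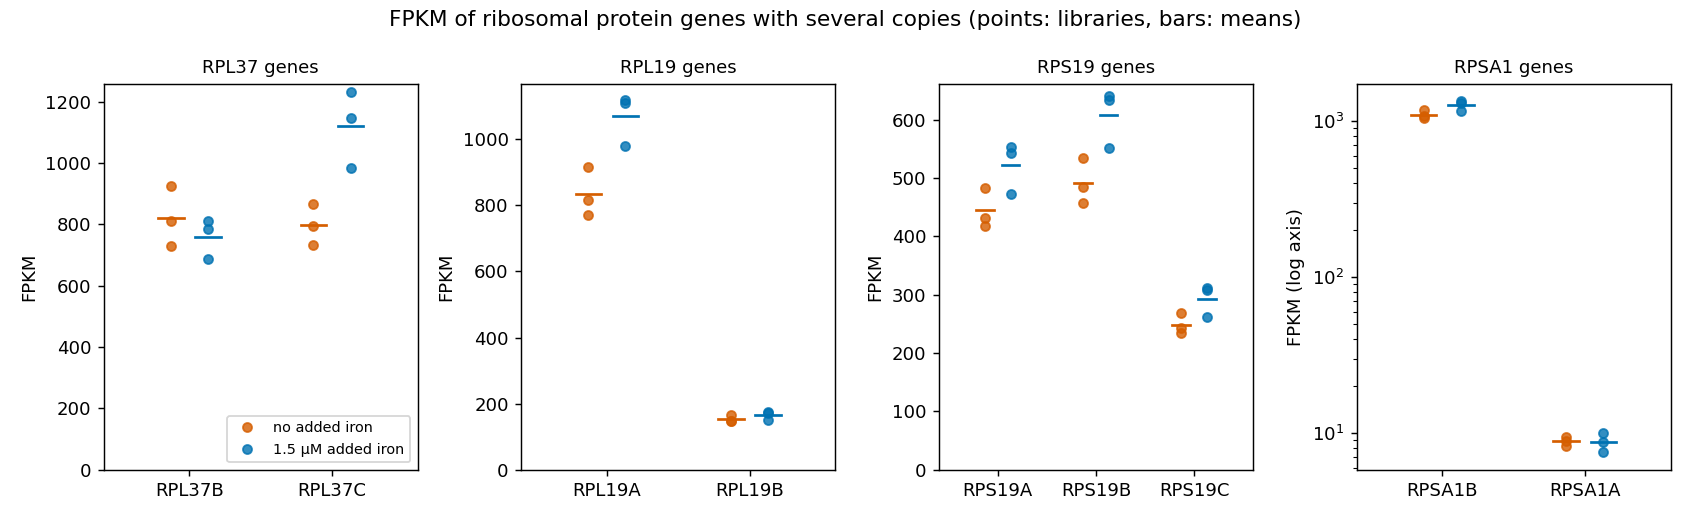
FPKM of RPL37B and RPL37C, RPL19A and RPL19B, the RPS19 genes, and RPSA1B and RPSA1A, with points for libraries and bars for the means of 3 (the RPSA1 panel has a log axis, the others start at 0). RPL37C is higher in all 3 libraries with added iron, while RPL37B overlaps between the groups.

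Genes without a ribosomal protein name carried some of the missing domains. DsB_g09681, with the L28e domain, had a mean of 982 FPKM (rank 100) and a log2 difference of -0.20 (limma adjusted p = 0.326). DsB_g08393, with the L7Ae domain that several ribosomal proteins share, had 1148 FPKM (rank 74) and -0.34 (adjusted p = 0.108). Other carriers of these domains were far lower, DsB_g14568 (L28e) at 4.64 FPKM, DsB_g13937 (L7Ae) at 14.3 and XPG4 (L7Ae) at 39.5.

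Other ribosome and translation genes were read from lists of names. Of 35 nuclear genes for plastid ribosomal proteins, 0 rose and 2 fell, PRPL29 (log2 fold change -0.47, limma adjusted p = 0.0337) and PRPL7A (-0.63, 0.0188), and the median was -0.23. That median stayed negative, at -0.05 and -0.11, with rescaled sums and quantile normalization. The count lower was 8 with median-of-ratios and 18 with upper-quartile factors, and with rescaled sums 1 was higher and 2 lower. Over all tested genes 5.20% were lower with the deposited FPKM, 7.42% with median-of-ratios and 8.18% with upper-quartile factors. With rescaled sums 22.9% of all tested genes were higher and 3.96% lower. Quantile normalization called 10 plastid genes lower and 0 higher, while it called 29 cytosolic genes higher. The background was then 7.87% lower and 7.55% higher, and the contrast between the lists was not tested. The plastid genes lay at a median of 226 FPKM, below the cytosolic ones.

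Of 69 nuclear genes for mitochondrial ribosomal proteins, with a median of 20.3 FPKM, 1 rose (MRPL22, 0.77, limma adjusted p = 0.0306) and 2 fell (MRPS6, -0.76, 0.00427, and MRPS17, -0.60, 0.00444). Their median was -0.03, and of all tested genes 4.19% were higher and 5.20% lower. With rescaled sums, where 22.9% of all genes were higher and 3.96% lower, the list's median was 0.15 and 9 were higher and 3 lower. Of 17 tested genes for ribosomal proteins in the organelle genomes, rps12 (-1.24, limma adjusted p = 0.0282) and rpl23 (-0.79, 0.0399) fell. In this list 0 rose, and the same backgrounds of 4.19% higher and 5.20% lower apply. Most organelle transcripts lack a poly(A) tail, and the libraries were poly(A)-selected.

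Among 15 ribosome assembly and recycling genes, 0 rose and 1 fell, against 4.19% and 5.20% of all tested genes. The gene that fell was RLI1, named for the ATPase with iron-sulfur clusters that splits ribosomes after termination in yeast and animals. RLI1 had 48.3, 43.3 and 43.5 FPKM without added iron against 75.0, 66.7 and 75.4 with iron, and the groups lay far apart (log2 fold change -0.67, SE 0.097, limma adjusted p = 0.00533). With rescaled sums 2 of these genes were higher and 1 lower, against 22.9% and 3.96% of all tested genes. The other scalings called 0 higher and 2 lower, against backgrounds of 7.42% to 8.18% lower. Quantile normalization left RLI1 at -0.64 (limma adjusted p = 0.0015). Of 41 translation factor genes, 0 rose and 2 fell, against 4.19% and 5.20% of all tested genes. The list's median was -0.11. The number lower was 9 with median-of-ratios factors, 10 with upper-quartile factors and 6 with quantile normalization, against backgrounds of 7.42%, 8.18% and 7.87%. With rescaled sums the list's median was 0.07, with 5 higher and 4 lower, against 22.9% and 3.96% of all tested genes. EIF5A, a factor that helps ribosomes through slow peptide bonds, had 536, 472 and 481 against 688, 647 and 743 FPKM (-0.48, limma adjusted p = 0.0234). EFG12, of the elongation factor G family, stood at -0.62 (limma adjusted p = 0.00923).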

How the data were processed

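The deposited FPKM values were computed by the authors with cuffdiff on reads aligned with STAR to their assembly, as the design text says, and the submitters' processing notes name Cuffdiff 2.0.2 and STAR 2.4.0j. The sources used here do not give strandedness or the handling of reads that map to several places. Coordinates are those of the authors' annotation, version 1.1, and count from 1. FPKM is no count, so no count model was run.

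Tested were the 13909 genes whose mean FPKM over 6 libraries reached 1. Values were compared as log2(FPKM + 1) in limma 3.58.1 (R 4.3.3), with the group term alone, a mean-variance trend and Benjamini-Hochberg adjustment over all tested genes, two-sided, at 0.05. The fold change on this scale understates that of low genes. Adding the pseudocount of 1 moves genes near 1000 FPKM little. P-values measure the spread between 3 flasks per group. On simulated data for no added iron against added iron, over 13909 genes, 98% of genes changed 2-fold and 100% of those changed 4-fold were recovered, with 4.81% false calls. The simulated noise was independent between genes, with no shift shared within a library, and genes of low level were given no change. Changes as small as those of the members were not simulated, so these rates do not carry over to them. Alternatives were other scalings, pseudocounts, filters, variance models, a replicate block and left-out libraries. Python 3.11.15, numpy 2.4.6, pandas 2.3.3, scipy 1.17.1 and matplotlib 3.10.9 were used.

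The search for whole-read steps found 26.8% to 47.7% of low values within 0.05 of a whole read, where chance gives 10%, with the highest shares in replicate 3 of both groups.

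Members and lists were chosen with earlier results of these data known. Named in full were called members, the 5 highest and 3 lowest by mean FPKM, the 3 with the highest and 3 with the lowest fold change, stalk and RPSA genes, and symbols with several copies. RPL10, RPS18, RPL31, RPS24 and RPS27E were also named for their ranks or for the test relative to the median member, after their values were seen. From the lists, 9 translation factor names and 1 assembly name were left out as other proteins by domain. No sequences were used. Some members are counted in the totals but not reported here by name.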

Additional observations from a re-analysis of the deposited data

How the results depend on the processing

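The number of members called lower, 2 with the deposited FPKM, was 10 with median-of-ratios factors, 11 with upper-quartile factors, 0 with quantile normalization, 0 with no filter on low values, 0 in replicates 1 and 2 only, and 0 to 1 with any 1 library left out. The number called higher, 0, became 1 with rescaled sums, 29 with quantile normalization and 5 relative to the median ribosomal protein gene, and was 0 with each library left out. The members' median of -0.21 became -0.024 with rescaled sums, 0.13 with quantile normalization and -0.13 in replicates 1 and 2 only, and ranged from -0.27 to -0.16 with 1 library left out. Over all tested genes, 1306 calls became 3736 with rescaled sums, 1977 with upper-quartile factors, 2145 with quantile normalization and 3063 relative to the median ribosomal protein gene, and ranged from 586 to 1784 with 1 library left out. The cause was not tested.

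The difference in share of summed FPKM, -0.154 percentage points, was 1.99 with quantile normalization and ranged from -0.502 to 0.294 with 1 library left out, being 0.227 without replicate 2 without added iron and 0.294 without replicate 1 with added iron. With rescaled sums, log2 fold changes turned positive for RPL13C and RPL13D (0.014 each), RPL19B (0.0787), RPL27A (0.17), RPL37A (0.0773) and RPS29 (0.13). With quantile normalization they turned for RPL13B (0.0024), RPL13C and RPL13D (0.062 each), RPL19A (0.026), RPL27A (0.28), RPL30 (0.31), RPL35A (0.31), RPL37A (0.40), RPLP1 (0.10), RPLP2 (0.0779), RPS15A (0.32), RPS29 (0.26), RPSA1B (0.0787) and RPSA1A (-0.0018). In replicates 1 and 2 only, RPL27A (0.089) and RPS29 (0.0897) turned. With 1 library left out, RPL27A ranged from -0.0913 to 0.0386, RPS29 from -0.179 to 0.0583 and RPSA1A from -0.0754 to 0.11.

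Same-numbered libraries showed only weak correlations of their deviations from the group means (0.0246, 0.0776 and -0.135). With 3 libraries per group this cannot decide whether the numbers pair the samples. With the replicate block, 813 genes were called and 1 member, RPL37C, was called lower.

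Depth is known only by inference, and short models without a UTR limit comparison of levels between genes. Quantile normalization assumes equal distributions, which was not tested.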
